A study of Mus musculus with 12 samples.

Results

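A single X-ray dose of 2 Gy was compared with no irradiation in LLC1 cells, a cultured line of mouse Lewis lung carcinoma. The comparison rests on the 6 arrays that the labels title as control replicates 1 to 3 and 2 Gy replicates 1 to 3, of 12 arrays in all. The other 6 arrays hold 3 samples after a single dose of 10 Gy and 3 after 5 fractions of 2 Gy (5x2 Gy). All groups are the same line in culture, with no genetic change named, and RNA was isolated 4 h after irradiation. Each array received 100 ng of Cy3-labelled RNA, in 1 colour, on an Agilent microRNA design. The control cells were untreated. The labels describe the replicates as biological, without saying which were grown together, so p-values measure the spread between these samples. A line in culture holds no host tissue, and bulk RNA cannot tell a shift in all cells from a larger shift in a share of them.

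MicroRNAs (miRNAs) are short RNAs that guide Argonaute proteins to messenger RNAs, mostly through pairing of the seed, the bases next to the 5′ end. Ionizing radiation breaks DNA and activates the transcription factor p53, whose best known miRNA targets are the miR-34 genes, which restrain the cell cycle and favour cell death. The miR-17 clusters, driven by Myc and E2F, act the other way and favour proliferation, and the let-7 and miR-15/16 families restrain growth.

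Levels are log2 values relative to the 75th percentile of each array's signal, and values at -4.06 lie on the floor set for dim signals. A change is the 2 Gy mean minus the control mean, with 3 against 3 arrays, tested with limma on all 12 arrays and adjusted by the Benjamini-Hochberg method over 118 tested miRNAs of 566 mouse entries. An entry was tested when it was detected, meaning well above background, on all 3 arrays of at least 1 of the 4 groups.

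The second replicates of both groups stood apart. Control replicate 2 was the dimmest of the 6 arrays, with a 75th percentile of 110.5 against 345.9 and 703.3 for control replicates 1 and 3. Array 2 of the 2 Gy group was the brightest, at 897.3 against 316.3 and 323.6. Over the 118 miRNAs, the levels of control replicate 2 correlated at 0.99 with 2 Gy replicate 1 and at 0.91 and 0.94 with its own group. The levels of 2 Gy replicate 2 correlated at 0.99 with control replicate 3 and at 0.96 and 0.97 with its own group. These correlations are across miRNAs, which are not independent replicates. Each array thus resembled the other group. Whether their sample labels were exchanged cannot be told from the files, and an exchange would alter every difference between the groups given here. The part of brightness was not tested. A fit that adjusts for brightness acts on these 2 arrays, the dimmest and the brightest of the 6. Its calls are therefore no independent support for a response. Calls that appear without these arrays are given beside the results.

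The groups overlapped in detection, which covered 75, 48 and 99 entries on the control arrays and 67, 110 and 76 after 2 Gy, with means of 74 ± 25.5 and 84.3 ± 22.7 (SD, n = 3). An exact two-sided permutation test gave p = 0.6 for the number detected and p = 0.6 for log2 brightness, where 3 against 3 arrays cannot go below 0.1. All 6 arrays were on 1 slide. By array position, 2 Gy replicates 2 and 3 were in its second row and the other 4 arrays in its first. Of 8 epithelial marker miRNAs (the miR-200 and miR-183 families), 6 were detected on none of the 6 arrays, including all 5 of the miR-200 family, and miR-182-5p and miR-96-5p were at or near the floor. Of 7 mesenchymal miRNAs on the array, miR-199a-3p, miR-199a-5p, miR-199b-5p and miR-214-3p were detected on all 6 arrays, miR-143-3p on 3 and near the floor, miR-214-5p on 1 and miR-145a-5p on 0. The epithelial markers of a carcinoma were thus largely absent, and mesenchymal markers were present in part.

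**Figure D1:**
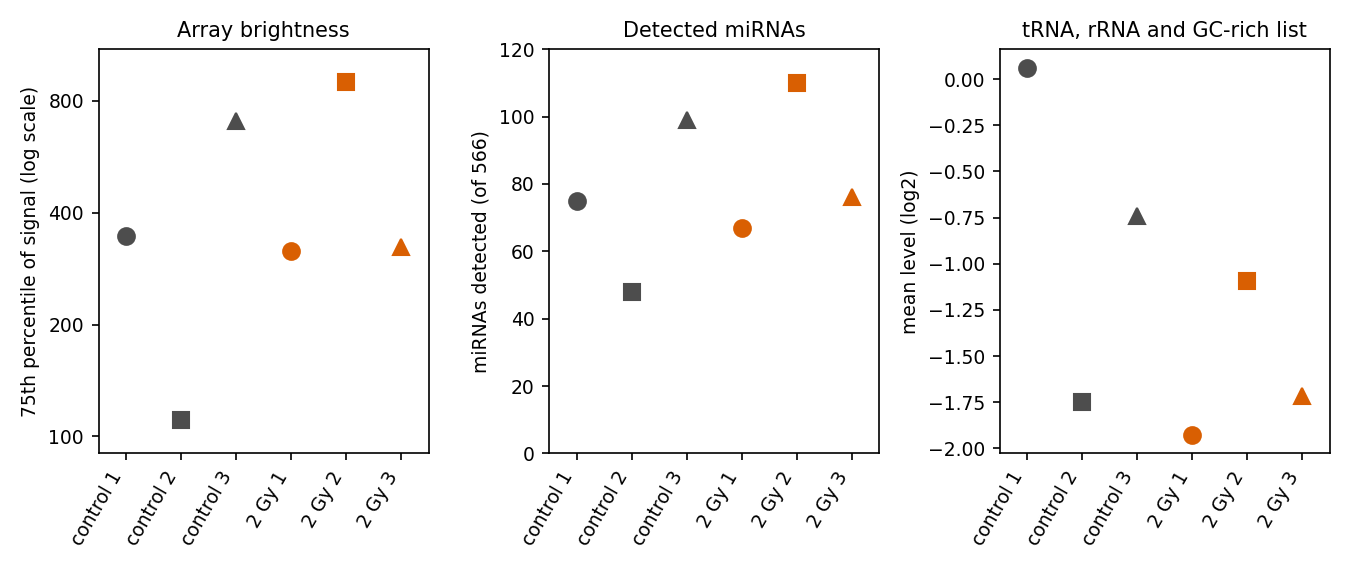
Array brightness (75th percentile of the signal, log axis), number of detected miRNAs of 566, and mean level of the tRNA, rRNA and GC-rich list (log2) for the 3 control arrays (grey) and the 3 arrays after 2 Gy (orange), 1 point per array. Control replicate 2 is the dimmest array at 110.5 and 2 Gy replicate 2 the brightest at 897.3, and the groups overlap in all 3 measures.

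The mature sequences of the miRNAs with the smallest p-values are shown with 5 relatives that share a seed with one of them, because relatives with the same seed can pair with the same target sites, so their changes are read side by side. Sequences and positions are those of RefSeq on assembly GRCm38.p6, 5′ to 3′, with the seed (bases 2 to 8) in capitals.
miR-34b-5p: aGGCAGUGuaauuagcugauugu
miR-107-3p: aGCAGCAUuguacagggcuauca
miR-103-3p: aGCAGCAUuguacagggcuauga
miR-322-5p: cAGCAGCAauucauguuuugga
miR-15b-5p: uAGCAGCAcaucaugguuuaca
miR-16-5p: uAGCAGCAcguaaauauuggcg
miR-92a-3p: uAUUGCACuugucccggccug
miR-25-3p: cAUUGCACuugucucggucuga
miR-26b-5p: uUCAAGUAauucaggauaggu
miR-26a-5p: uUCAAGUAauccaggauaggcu
miR-21a-3p: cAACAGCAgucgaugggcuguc

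No miRNA passed the test after 2 Gy: limma called 0 of 118 (0%) at an adjusted p under 0.05. At an unadjusted p under 0.05 there were 11 (9.32%), of which 6 were higher and 5 lower. Changes were small. The median size was 0.11 on the log2 scale beside a median SD within groups of 0.17, and 28 of the 118 changes were larger than the SD within groups. Of all tested, 50 (42.4%) had a positive and 47 (39.8%) a negative change, and the other 21 lay on the floor on all 6 arrays. The 95% interval of the change stayed within 2-fold for 108 miRNAs, or 87 of the 97 that left the floor, and within 1.5-fold for 79. For most tested miRNAs a 2-fold change lay outside the interval of the main fit, but the count differed between settings. Counts of intervals are not corrected for a shift common to all miRNAs, and no floor was applied to the authors' values. Within 2-fold stayed 56 of 118 intervals with scaling over all probes, 64 with the total gene signal of Feature Extraction and 0 with the authors' values, and 96 without the second replicates of both groups. The 10 that such an interval does not bound are miR-709, miR-714, miR-188-5p, miR-31-5p, miR-1224-5p, miR-689_v15.0, miR-34c-5p, miR-494-3p, miR-690 and miR-22-3p.

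**Figure D2:**
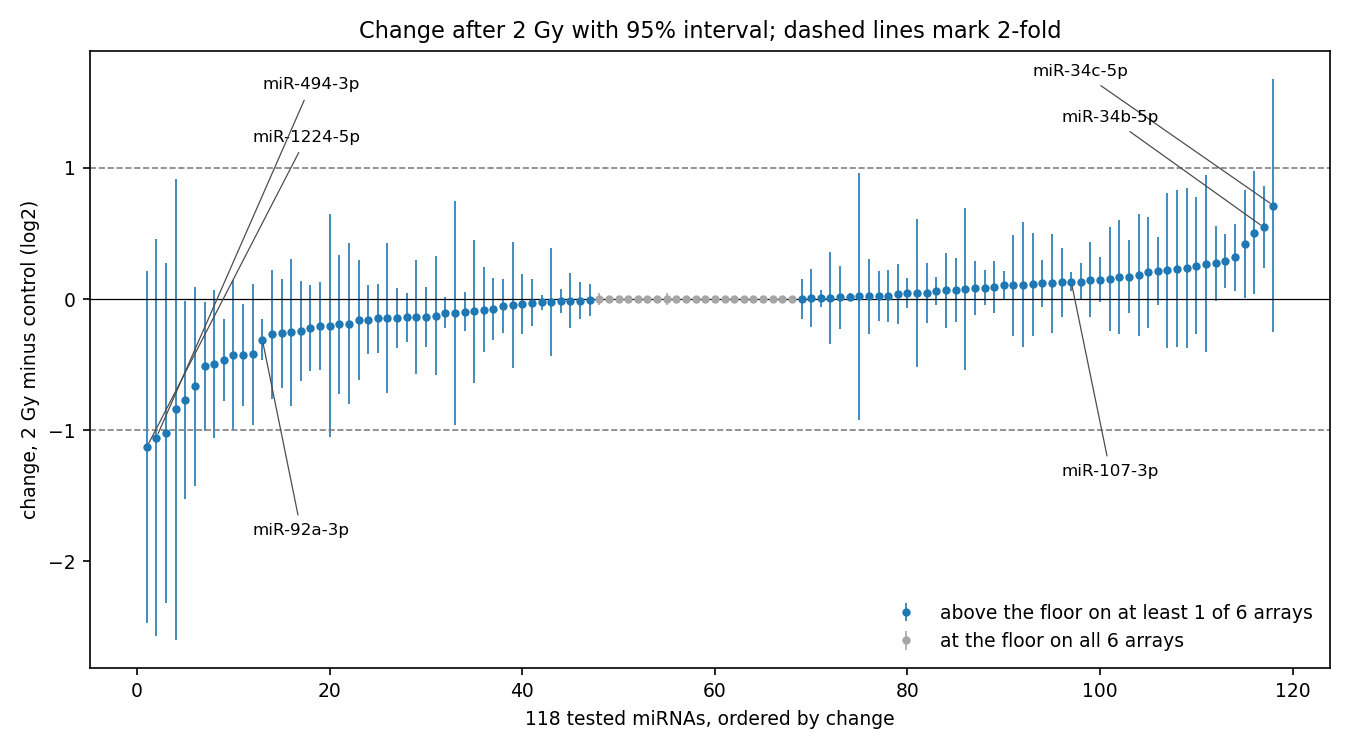
Change after 2 Gy (2 Gy mean minus control mean, log2) for the 118 tested miRNAs in order of size, with 95% intervals from limma. Grey points are the 21 miRNAs at the floor on all 6 arrays and dashed lines mark 2-fold: 108 intervals lie within them, and the widest belong to miRNAs with the most negative changes.

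The 3 control and 3 irradiated arrays did not overlap for 8 of 118 miRNAs (6.78%). Those higher after 2 Gy were miR-107-3p, miR-34b-5p, miR-322-5p, miR-26b-5p and miR-350-3p (5, 4.24%), and those lower were miR-92a-3p, miR-21a-3p and miR-125a-5p (3, 2.54%). Taken singly, both probes of miR-322-5p separated the groups, and neither probe of miR-107-3p or of miR-26b-5p did. For miR-34b-5p, miR-92a-3p and miR-21a-3p only a single probe did. MiR-350-3p had -3.59, -3.37 and -3.35 in control and -3.28, -3.34 and -3.29 after 2 Gy, a change of 0.13 (SE 0.06, limma adjusted p = 0.518). MiR-125a-5p had -2.30, -2.21 and -2.27 in control and -2.45, -2.31 and -2.33 after 2 Gy, a change of -0.11 (SE 0.05, limma adjusted p = 0.518). For both, the nearest arrays of the 2 groups lay close together. No entry was detected on all 3 arrays of 1 group and on none of the other. Of the 566 entries, 48 were detected on all 6 arrays and 453 on none, and 17 were detected on 2 control arrays and all 3 after 2 Gy.

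Without the second replicates of both groups, a setting chosen after the data were seen, limma called 20 of 118 (16.9%), 9 higher and 11 lower. Both arrays lay closer to the other group, so leaving them out widens the distance between groups by construction, and the count is no independent support for a response. Among the 20 were miR-34b-5p (0.82), miR-34c-5p (1.498), miR-92a-3p (-0.34), miR-199a-3p (0.56), miR-31-5p (-0.87) and miR-1224-5p (-2.08). The others were miR-10b-5p (0.84), miR-129-2-3p (0.64), miR-15b-5p (0.70), miR-29b-1-5p (0.72), miR-151-5p (0.41) and miR-130a-3p (0.20), which were higher, and miR-21a-3p (-0.25), miR-714 (-1.28), miR-709 (-0.70), miR-202-3p (-0.76), miR-22-3p (-0.76), miR-494-3p (-2.25), miR-689_v15.0 (-1.96) and miR-690 (-2.24), which were lower. Without control replicate 2 alone limma called 6 of 118, without control replicate 3 it called 2, without 2 Gy replicate 2 it called 1, and without any other single array of these groups 0. Every omission also set the floor, the scaling and the probes kept anew, so its values differ from the main fit by more than the arrays left out.

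**Figure D3:**
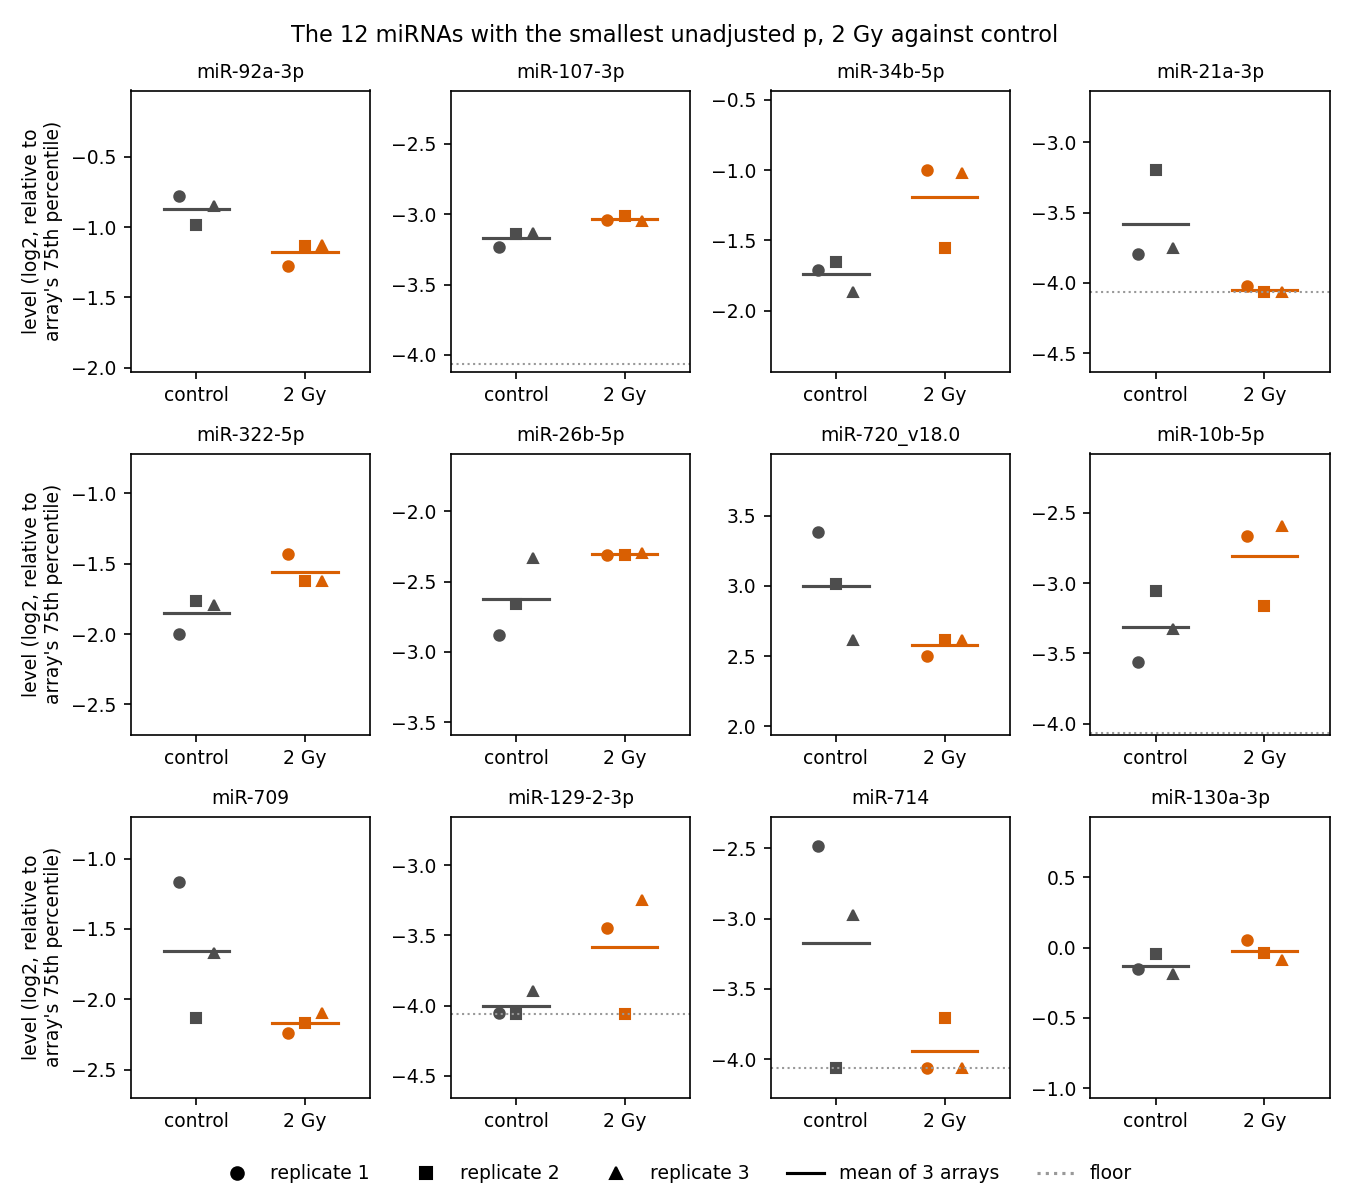
Levels (log2, relative to the array's 75th percentile) of the 12 miRNAs with the smallest unadjusted p in the 3 control (grey) and 3 irradiated (orange) arrays, with a bar for each mean and a dotted line for the floor; each vertical axis has its own position and spans at least 2 log2 units. The groups do not overlap for miR-92a-3p, miR-107-3p, miR-34b-5p, miR-21a-3p, miR-322-5p and miR-26b-5p, and 2 Gy replicate 2 (square) is the irradiated array nearest to control for miR-34b-5p and miR-10b-5p.

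The miR-34 family is the classical p53 arm of the response. MiR-34b-5p, from chr9:51103610-51103632 on the minus strand, inside the bounds of Btg4 and Hoatz, had levels of -1.71, -1.65 and -1.87 in control and of -1.003, -1.56 and -1.02 after 2 Gy. All irradiated arrays were above all control arrays, 2 Gy replicates 1 and 3 by a wide margin and replicate 2 narrowly. The change was 0.55 (SE 0.14, 95% interval 0.23 to 0.86, 1.46-fold, limma adjusted p = 0.142), so it did not pass. Both of its probes had a positive difference, 0.52 and 0.57. It passed without 2 Gy replicate 2 (0.73, limma adjusted p = 0.00118) and in a fit that adjusts for array brightness (0.63, limma adjusted p = 0.018). Over its alternatives limma adjusted p-values ran from 0.00118 to 1.

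MiR-34c-5p, made from the neighbouring hairpin, had levels of -2.10, -1.21 and -2.39 in control and of -0.77, -1.98 and -0.82 after 2 Gy. Its groups overlapped, because control replicate 2 was high and 2 Gy replicate 2 was low. The change of 0.71 (SE 0.42, 95% interval -0.25 to 1.68, limma adjusted p = 0.611) was the largest positive one of the 118 and did not pass. Its 2 probes had differences of 0.69 and 0.74. It passed in the fit adjusted for brightness (1.05, limma adjusted p = 0.00797). Adjusted for the mean of the tRNA, rRNA and GC-rich list, described further on, the change was 0.12.

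The other arm of each hairpin, miR-34b-3p and miR-34c-3p, lay at the floor on all 6 arrays. MiR-34a-5p, the family member from its own gene and in many tissues the main one, was not well above background on any of the 6. So were 4 more of the 13 p53-responsive miRNAs on the array, miR-145a-5p and the differentiation miRNAs miR-192-5p, miR-194-5p and miR-215-5p, and none of these 5 was tested.

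Of the 8 tested p53-responsive miRNAs, 0 were called, and 5 had a positive and 1 a negative change. Counted as positive is miR-15a-5p, whose change of 3.8e-05 is practically 0. The median change was 0.07 beside 0 over all 118, turning to -0.02 with scaling over all probes and to -0.06 with normexp background correction. The list was drawn up with earlier results of these data known, so its direction is no independent evidence. MiR-107-3p, from chr19:34820700-34820722 on the minus strand inside the pantothenate kinase gene Pank1, had levels of -3.23, -3.14 and -3.13 in control and of -3.04, -3.01 and -3.05 after 2 Gy. The groups did not overlap but lay close together, with a change of 0.13 (SE 0.03, 95% interval 0.06 to 0.20, 1.1-fold, limma adjusted p = 0.142). It passed without control replicate 2 (0.24, limma adjusted p = 0.0427) and without control replicate 3 (0.15, limma adjusted p = 0.0235), and with normexp its sign turned (-0.04). It was detected on 2 of 3 control arrays, and its dimmer probe contributed a difference of 0.05 against 0.22 for the brighter. MiR-143-3p, a smooth muscle and fibroblast miRNA, was near the floor, with -4.05, -4.04 and -4.06 in control and -3.87, -4.06 and -3.77 after 2 Gy. Its change was 0.15 (limma adjusted p = 0.518), and it turned with normexp and with scaling over all probes (-0.14 in each). MiR-15a-5p and miR-16-5p, which repress Bcl2 and cyclins, had changes of 0.00 and -0.05.

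**Figure D4:**
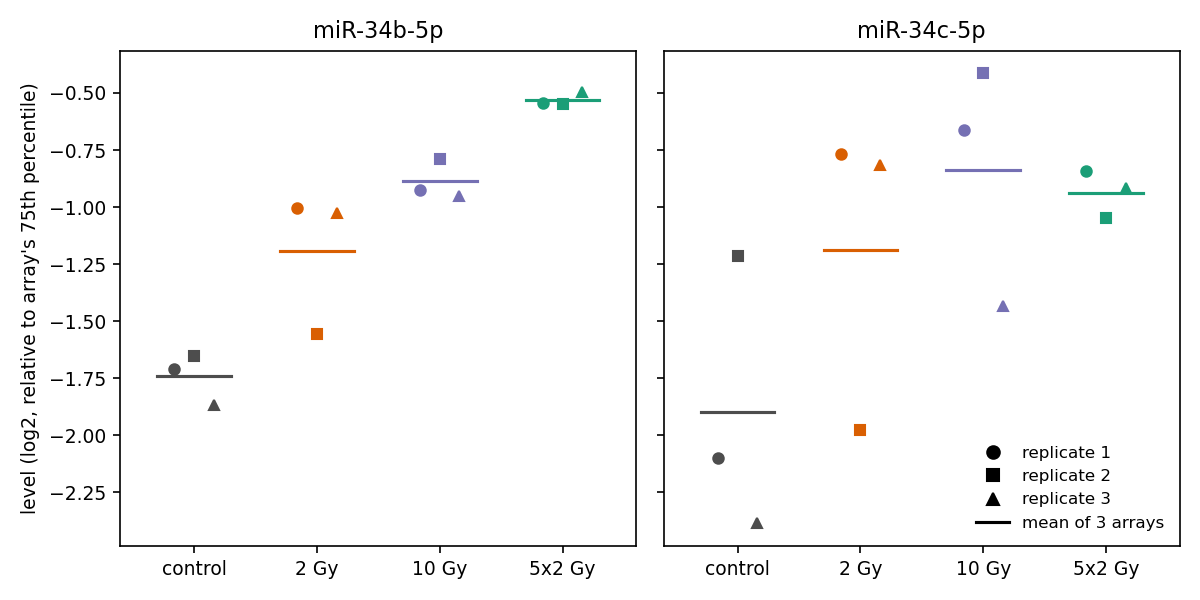
Levels of miR-34b-5p and miR-34c-5p (log2, relative to the array's 75th percentile) in control, 2 Gy, 10 Gy and 5x2 Gy, 1 point per array and a bar for the mean of 3. For miR-34b-5p the means run from -1.74 in control over -1.19 after 2 Gy and -0.89 after 10 Gy to -0.53 after 5x2 Gy; for miR-34c-5p control replicate 2 at -1.21 lies above 2 Gy replicate 2 at -1.98.

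The higher single dose sets the scale for the miR-34 levels. After 10 Gy miR-34b-5p had levels of -0.92, -0.79 and -0.95, and after 5x2 Gy of -0.55, -0.55 and -0.49. Its mean was therefore lowest in control, then 2 Gy, 10 Gy and 5x2 Gy. Each irradiated group was set against the same control arrays, with changes of 0.55 after 2 Gy, 0.85 after 10 Gy (limma adjusted p = 0.0239) and 1.21 after 5x2 Gy (limma adjusted p = 0.000888). Limma called 1 of 118 (0.847%) after 10 Gy and 15 (12.7%) after 5x2 Gy. A second slide held all arrays of 5x2 Gy, 1 of 10 Gy and no control array, and the part of the slide in the 5x2 Gy values was not tested.

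The direct comparison of 10 Gy with 2 Gy, whose difference does not use the control means but whose error comes from the spread in all 4 groups, had 0 calls in limma, with 2 of 118 miRNAs (1.69%) at an unadjusted p under 0.05. For miR-34b-5p the difference was 0.31 (SE 0.14, limma adjusted p = 1), and 0.34 with slide as a block. For miR-34c-5p it was 0.35 (SE 0.42, limma adjusted p = 1), and 0.65 with slide as a block. The slide block sets only 10 Gy replicates 1 and 2 against the 2 Gy arrays, because 10 Gy replicate 3 was on the second slide. It thus amounts to leaving out that array. A larger change after 10 Gy than after 2 Gy was thus not shown for either. Without 2 Gy replicate 2 the difference for miR-34c-5p was -0.04.

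The other 11 of the 12 miRNAs with the smallest p after 2 Gy are given beside the other doses, all against the same 3 control arrays, so the values are not independent. In the order 2 Gy, 10 Gy and 5x2 Gy, the changes of miR-92a-3p were -0.31, -0.29 and -0.12. Those of miR-322-5p were 0.29, 0.22 and 0.21, and those of miR-26b-5p 0.32, 0.25 and 0.26. For these 3 miRNAs the signs were the same at the 3 doses, and the 10 Gy values were no further from 0 than the 2 Gy values. All 11 were chosen for a small p after 2 Gy, which favours large 2 Gy values. This comparison therefore cannot show whether the change depends on dose. MiR-107-3p had 0.13, 0.13 and 0.20, and miR-10b-5p had 0.51, 0.47 and 0.40. MiR-129-2-3p had 0.42, 0.75 and 1.03, the widest spread between doses among these miRNAs. MiR-130a-3p went from 0.10 over 0.02 to -0.02, so its sign differed between doses. MiR-21a-3p had -0.47, -0.44 and -0.47, and miR-714 had -0.77, -0.89 and -0.89. MiR-21a-3p was at the floor on 2 of 3 arrays at each dose. MiR-714 was there on 2 arrays after 2 Gy and on all 3 after 10 Gy and 5x2 Gy. The floor therefore sets these values in large part. MiR-720_v18.0 had -0.42, -0.62 and -0.49, and miR-709 had -0.51, -0.34 and -0.54. The last 4 had negative values at all 3 doses.

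The group of miR-15, miR-16, miR-103 and miR-107 has overlapping seeds and targets cell cycle genes. Of 7 tested members, 6 had a positive change, among them miR-15a-5p at only 3.8e-05, and 0 were called, with a median of 0.07. MiR-322-5p, the rodent counterpart of miR-424 and a repressor of cell cycle genes, from chrX:53054306-53054327 on the minus strand, had levels of -1.9998, -1.76 and -1.79 in control and of -1.43, -1.62 and -1.62 after 2 Gy. All irradiated arrays were above all control arrays. The change was 0.29 (SE 0.09, 95% interval 0.09 to 0.50, 1.23-fold, limma adjusted p = 0.261). The groups of its seed relatives overlapped. MiR-15b-5p had -1.27, -0.39 and -0.94 in control and -0.35, -0.94 and -0.55 after 2 Gy, a change of 0.25 (SE 0.23) that was 0.70 without both second replicates (limma adjusted p = 0.0395), and miR-16-5p, made from the same transcript inside Smc4 as well as from Dleu2, had -0.05 (SE 0.21). MiR-103-3p, which differs from miR-107-3p near the 3′ end of the sequences above and shares its seed, had a change of 0.04 (SE 0.10).

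In the miR-17 clusters, the proliferation miRNAs, 9 of 10 tested members had a negative change and 1 a positive one, 0 were called, and the median was -0.15. Left out of this list are the tested entries miR-17_v17.0 and miR-106a_v17.0, whose names on the array give no arm. MiR-17_v17.0 had -2.74, -3.56 and -2.82 in control and -3.43, -2.85 and -3.39 after 2 Gy, a change of -0.19 (SE 0.27, limma adjusted p = 0.934). MiR-106a_v17.0 had a change of -0.09 (SE 0.24). With both, 11 of 12 changes were negative, with a median of -0.15. MiR-92a-3p, from chr14:115044476-115044496 in Mir17hg and from a second copy at chrX:52741854-52741874, had levels of -0.78, -0.99 and -0.85 in control and of -1.28, -1.14 and -1.13 after 2 Gy. All 3 irradiated arrays were lower, with narrow groups. The change was -0.31 (SE 0.07, 95% interval -0.46 to -0.15, 1.24-fold, limma adjusted p = 0.142), the smallest p of all tested. It passed without control replicate 2 (-0.33, limma adjusted p = 0.0427) and in the fit adjusted for brightness (-0.34, limma adjusted p = 0.0196). Its probes had differences of -0.34 and -0.27.

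Other members of the clusters had changes closer to their errors. MiR-19b-3p had 0.32, 0.18 and 0.31 in control and 0.10, 0.34 and -0.29 after 2 Gy. The change was -0.22 (SE 0.14, limma adjusted p = 0.64), and 2 Gy replicate 2 was above all controls. MiR-18a-5p had -0.27 (SE 0.22), miR-20a-5p -0.14 (SE 0.10) and miR-93-5p -0.14 (SE 0.10). The member with the positive change, miR-25-3p, lies inside Mcm7 at chr5:138165332-138165353, shares its seed with miR-92a-3p, and had a change of 0.05 (SE 0.10, 95% interval -0.18 to 0.28). The sign turned with scaling over all probes (-0.05) and normexp (-0.08). With slide row as a block, which sets only 2 Gy replicate 1 against the control mean, it was -0.19. Of the tested miRNAs matched to a RefSeq sequence, the 4 with the seed AAAGUGC (miR-20a-5p, miR-20b-5p, miR-93-5p and miR-106b-5p) had negative changes, from -0.16 to -0.01.

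Among 9 tested carcinoma-linked miRNAs, 6 changes were negative, 2 positive and 0 called, with a median of -0.05. MiR-21a-5p, an oncogenic miRNA in many tumours, had 2.23, 3.00 and 2.29 in control and 3.00, 2.35 and 2.82 after 2 Gy. Its groups overlapped, with a change of 0.22 (SE 0.26, limma adjusted p = 0.86). The opposite arm, miR-21a-3p, from chr11:86584082-86584103 inside Vmp1, had -3.80, -3.20 and -3.75 in control and -4.02, -4.06 and -4.06 after 2 Gy. The control arrays were all higher, but 2 irradiated arrays were at the floor and the miRNA was detected on 1 array of each group, so the change of -0.47 (SE 0.14, limma adjusted p = 0.243) depends on the floor. It passed with quantile normalization (-0.28, limma adjusted p = 0.003) and the change was 0 with the floor at the highest array limit. Each omission of an array set the floor, the scaling and the probes kept anew. The change then ran from -0.20 without 2 Gy replicate 2 and -0.25 without control replicate 3 to -0.87 without control replicate 1 and -0.89 without 2 Gy replicate 1. With the levels of the main fit kept, it was -0.48 without 2 Gy replicate 1, so this spread is not that of single arrays alone. Without both second replicates it was -0.25 (limma adjusted p = 0.00691).

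MiR-31-5p, a miRNA of invasive carcinoma, had 0.11, -0.63 and -0.08 in control and -0.94, -0.27 and -0.86 after 2 Gy. The second replicates of each group lay on the other group's side. The change was -0.49 (SE 0.25, 95% interval -1.06 to 0.07, limma adjusted p = 0.518), and it passed in the fit adjusted for brightness (-0.68, limma adjusted p = 0.0196). MiR-221-3p and miR-222-3p, transcribed together and repressors of the cell cycle inhibitor p27, had changes of 0.05 (SE 0.25) and -0.13 (SE 0.20).

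MiR-26b-5p, a miRNA in the phosphatase gene Ctdsp1 at chr1:74394324-74394344, had -2.88, -2.66 and -2.33 in control and -2.31, -2.31 and -2.30 after 2 Gy. The irradiated arrays were nearly equal, and control replicate 3 lay just below them. The change was 0.32 (SE 0.11, 95% interval 0.06 to 0.57, limma adjusted p = 0.403). It passed without control replicate 3 (0.47, limma adjusted p = 0.00702). MiR-26a-5p, with the same seed, had a change of 0.01 (SE 0.10). In the list of miR-99, miR-100, miR-125 and miR-26, 3 of 7 changes were positive, 3 negative and 0 called, with a median of 0. Within it miR-99b-5p had the most negative change (-0.25, SE 0.24, limma adjusted p = 0.804), and miR-125b-5p, a repressor of p53 itself, had 0.16 (SE 0.17, limma adjusted p = 0.831).

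Some low miRNAs also had small unadjusted p-values. MiR-10b-5p, a Hox cluster miRNA linked to metastasis, had -3.56, -3.06 and -3.33 in control and -2.67, -3.16 and -2.60 after 2 Gy, a change of 0.51 (SE 0.21, limma adjusted p = 0.502). Its second replicates again crossed over, and it passed in the fit adjusted for brightness (0.64, limma adjusted p = 0.0411) and without both second replicates (0.84, limma adjusted p = 0.0404). MiR-129-2-3p had -4.05, -4.06 and -3.90 in control and -3.45, -4.06 and -3.25 after 2 Gy, so it left the floor clearly on 2 irradiated arrays. Its change was 0.42 (SE 0.18, limma adjusted p = 0.502). It passed without both second replicates (0.64, limma adjusted p = 0.0123), and turned with normexp (-0.02) and with scaling over all probes (-0.19). MiR-714 was at the floor on control replicate 2 and on 2 Gy replicates 1 and 3, with a change of -0.77 (SE 0.33, limma adjusted p = 0.502). Its SD was 0.81 in control and 0.21 after 2 Gy, but 0 after 10 Gy and 5x2 Gy, where all arrays lay at the floor. The SE pools all 4 groups, so the floored arrays lower it. MiR-714 passed without control replicate 2 (-1.60, limma adjusted p = 0.0427) and without both second replicates (-1.28, limma adjusted p = 0.00184), and was -0.52 without control replicate 1. MiR-130a-3p, from the miR-130/301 seed family, had -0.15, -0.05 and -0.19 in control and 0.05, -0.04 and -0.09 after 2 Gy, a change of 0.10 (SE 0.05, limma adjusted p = 0.518) and of 0.20 without both second replicates (limma adjusted p = 0.0395).

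**Figure D5:**
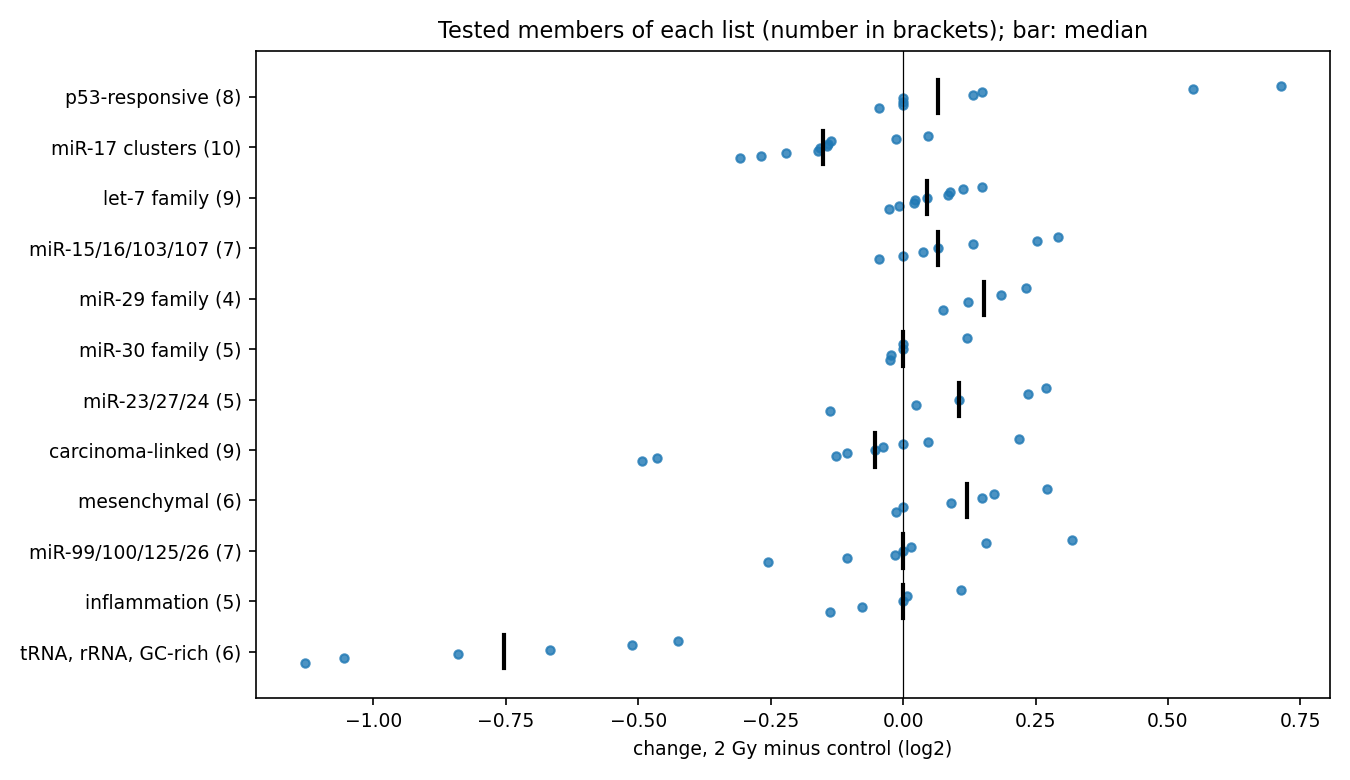
Change after 2 Gy (log2) of each tested member of 12 lists of miRNAs, 1 point per miRNA, with the number tested in brackets and a bar at the median; a miRNA can be in more than 1 list. Medians lie between -0.15 and 0.15 in 11 lists and at -0.75 in the tRNA, rRNA and GC-rich list; in the p53-responsive list the points at 0.55 and 0.71 are miR-34b-5p and miR-34c-5p.

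Of the growth-restraining and fibrosis-linked families 0 members were called. In the let-7 family, whose members repress Ras and Myc, 7 of 9 changes were positive with a median of 0.05, from -0.03 for let-7d-5p to 0.15 for let-7f-5p. Let-7f-5p had -0.22, 0.24 and 0.19 in control and 0.29, 0.11 and 0.25 after 2 Gy, so the groups overlapped (SE 0.12, limma adjusted p = 0.741). All 4 tested members of the miR-29 family, which represses collagens, had positive changes, with a median of 0.15. They ran from 0.08 for miR-29a-3p (SE 0.27, limma adjusted p = 1) to 0.23 for miR-29b-1-5p (SE 0.26, limma adjusted p = 0.831), which turned with normexp (-0.04) and with scaling over all probes (-0.08). Without the second replicates of both groups this median was -0.11, so its direction turned, while miR-29b-1-5p was called higher (0.72, limma adjusted p = 0.0284).

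In the miR-30 family 1 change was positive, 2 were negative and 2 were 0, from -0.02 for miR-30a-5p to 0.12 for miR-30b-5p (SE 0.08, limma adjusted p = 0.64). The family lay near the floor, with list means per array between -4.01 and -3.82, and the changes of 0 are floor values. These small changes therefore do not show unchanged levels. For miR-30b-5p 1 probe was at the floor in both groups, and the other had a difference of 0.24. In the miR-23/27/24 clusters 4 of 5 changes were positive, with a median of 0.10. MiR-23a-3p, a miRNA of muscle and vessel cells, had -0.84, -0.08 and -0.87 in control and -0.23, -0.74 and -0.01 after 2 Gy, which crossed over at the second replicates as miR-34c-5p did. Its change was 0.27 (SE 0.30, limma adjusted p = 0.831), and that of miR-27b-3p was -0.14 (SE 0.08, limma adjusted p = 0.611). MiR-23a-3p turned in the fit adjusted for the tRNA, rRNA and GC-rich mean (-0.15).

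Of 6 tested mesenchymal miRNAs, 4 changes were positive, 1 negative and 0 called, with a median of 0.12 that turned with scaling over all probes (-0.01) and normexp (-0.02). MiR-199a-3p had -0.04, 0.41 and 0.04 in control and 0.56, 0.21 and 0.47 after 2 Gy, a change of 0.27 (SE 0.12, 95% interval -0.01 to 0.56, limma adjusted p = 0.518). It passed in the fit adjusted for brightness (0.36, limma adjusted p = 0.0196). The other arm, miR-199a-5p, had a change of -0.01 (SE 0.06, 95% interval -0.16 to 0.13). The difference between the arms was not tested. Of 5 tested inflammation miRNAs, 2 changes were positive, 2 negative and 0 called, with a median of 0. They ran from -0.14 for miR-212-3p (SE 0.19, limma adjusted p = 0.91) to 0.11 for miR-142a-3p (SE 0.21, limma adjusted p = 0.981).

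MiR-142a-3p is a blood cell miRNA, and it was detected on all 6 arrays at -0.86, -0.55 and -1.27 in control and -0.66, -0.89 and -0.80 after 2 Gy. Of the 6 blood cell markers, the other 4 besides miR-142a-3p and miR-142a-5p, among them the erythroid miR-451a and the myeloid miR-223-3p, were detected on none of the 6. The list level, as the mean of its 2 tested members, ran from -2.58 to -2.30 in control and from -2.43 to -2.22 after 2 Gy. None of 3 muscle and 3 nerve cell or liver markers was detected on any of the 6.

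The list of entries often traced to tRNA or rRNA fragments or rich in G and C had the most negative values. All 6 tested members had negative changes, from -1.13 to -0.42, with a median of -0.75, and 0 were called. The mean of the list per array was 0.06, -1.75 and -0.74 in control and -1.93, -1.10 and -1.72 after 2 Gy. Control replicates 1 and 3 were high and control replicate 2 lay with the irradiated arrays. An exact two-sided permutation test of the difference of -0.77 gave p = 0.3, where 0.1 is the smallest possible. Without the second replicates of both groups the median of the list was -1.51. MiR-1224-5p had 0.97, -1.70 and -0.17 in control and -1.79, -0.83 and -1.66 after 2 Gy, a change of -1.13 (SE 0.59, 95% interval -2.47 to 0.21, limma adjusted p = 0.551). MiR-720_v18.0, a tRNA fragment by its origin, had 3.38, 3.02 and 2.61 in control and 2.50, 2.62 and 2.61 after 2 Gy, with a change of -0.42 (SE 0.17, limma adjusted p = 0.502). MiR-709 had -1.16, -2.13 and -1.67 in control and -2.24, -2.17 and -2.10 after 2 Gy, a change of -0.51 (SE 0.21, limma adjusted p = 0.502). Without control replicate 2 limma called miR-709 (-0.72), miR-1224-5p (-1.90) and miR-188-5p (-1.40), each at an adjusted p of 0.0427. Adjusted for the mean of this list, miR-34b-5p had a change of 0.41 (limma adjusted p = 0.205) and limma called 1 miRNA, miR-21a-3p (-0.66). The part of RNA quality in these values was not tested.

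The entries with the brightest probes on the control arrays, which is no order of abundance, had overlapping groups. Besides miR-720_v18.0 and miR-21a-5p these were miR-29a-3p, with a control mean of 0.65 ± 0.48 and a 2 Gy mean of 0.73 ± 0.29 (SD, n = 3), miR-125b-5p, with 0.43 ± 0.20 and 0.58 ± 0.32, and miR-19b-3p, with 0.27 ± 0.08 and 0.05 ± 0.32. A mature sequence in RefSeq was matched for 101 of the 118. Over these, the share of G and C and the change had a Spearman rho of -0.36, given as a description without a test. The 28 with the highest share of G and C (52.2% or more) had a median change of -0.05, and the other 73 had 0.00.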

How the data were processed

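The scanner files hold spot intensity, not yet on a log scale, which the authors deposited from Agilent Feature Extraction (version 10.7.3.1, as the submitters' processing notes name it). A table of log2 values for the series, also deposited by the authors, served as an alternative. Its values equal the log2 processed signal apart from 1 shift per array, within 1e-04.

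Control spots and outlier spots (2.04 to 4.95% per array) were dropped, no spot being saturated, and spots were averaged per probe. Signals were scaled to each array's 75th percentile over 78 probes detected on all 12 arrays, floored at 0.0598 and log2-transformed. Detection of a probe required over 0.5 of its spots well above background. For each miRNA, probes detected on 3 or more arrays were averaged. The floor is the median over arrays of the lowest detected signal. The design had named the highest (0.265), which left 63 of 118 miRNAs at 1 value on all arrays, so that floor is an alternative. Groups were tested with limma (version 3.58.1, R 4.3.3) on all 12 arrays, with 8 residual and 0.45 prior degrees of freedom, two-sided, with Benjamini-Hochberg adjustment and a threshold of 0.05. The fit was tested on simulated data.

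The members and lists were chosen with earlier results of these data known. The text names the 12 miRNAs with the smallest p, every tested p53-responsive miRNA, the highest and lowest change of each other list with at least 3 tested members, and the 5 with the highest control signal. Other names, such as seed relatives, non-overlapping miRNAs and the 10 with wide intervals, were added after their values were seen. The number of arrays limits the precision. Alternatives covered scaling, background (normexp on median spot signals, offset 50), floor, filter, the arrays in the fit, slide, slide row, brightness, the mean of a list and a replicate block. Where arrays were left out, the floor, the probes used for scaling and the probes kept were set anew from the remaining arrays.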

Additional observations from a re-analysis of the deposited data

How the results depend on the processing

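There were 1261 comparisons of a value with its value under an alternative. Of these, 1088 counted as kept, with the same direction and side of the threshold or a move under the spread. Another 55 counted as reversed. The tally is no measure of stability, because some of these comparisons could not reverse. Control and 2 Gy arrays shared a slide and had balanced replicates, so slide or replicate as a block leaves their difference unaltered. MiR-34b-3p and miR-34c-3p, at 0 in the main fit, counted as kept in each of 14 alternatives. Their values ran from -0.19 to 0.38 and from -0.17 to 0.88. MiR-21a-3p reached 0, which did not count as reversed. Where a setting moved the median of all miRNAs above the floor by over 0.1 (0.17 with scaling over all probes, 0.39 with the authors' values, -0.11 with normexp), changes are relative to that shift. Counts of calls, p-values, overlaps and intervals are not corrected for it. The cause was not tested, except that settings with fewer miRNAs tested (67) have fewer intervals to count. With 67 tested in each, 44 intervals stayed within 1.5-fold with all arrays in the fit and 31 with only control and 2 Gy arrays. The parts of the number of samples, of the pooled spread and of the probes kept in this drop were not tested. The slide row block, the total gene signal, the list mean, the floor as first written and the joint omission of both second replicates were chosen after seeing the data. MiR-34b-5p (0.33 to 0.82) and miR-92a-3p kept their direction under every alternative run that could alter it. So did several others, among them miR-322-5p (0.17 to 0.42), miR-34c-5p (0.12 to 1.498) and miR-31-5p (-0.87 to -0.08). The 0.42 for miR-322-5p comes from the slide row block and rests on 2 Gy replicate 1 alone. All alternatives draw on the same arrays. Dim probes limit miR-21a-3p, miR-129-2-3p, miR-143-3p, miR-714 and the miR-30 family, which lie near the floor.

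With scaling over all probes, 1 miRNA had an unadjusted p under 0.05, 1 had groups that did not overlap, and 56 and 36 intervals stayed within 2-fold and 1.5-fold. MiR-129-2-3p (-0.19), miR-143-3p (-0.14), miR-25-3p (-0.055), miR-29b-1-5p (-0.078) and miR-30b-5p (-0.13) reversed, and medians were -0.023 (p53-responsive), -0.16 (miR-30), -0.0082 (mesenchymal) and -0.17 (inflammation). With normexp, 28 intervals stayed within 1.5-fold and 4 miRNAs did not overlap. MiR-107-3p (-0.043), miR-129-2-3p (-0.020), miR-143-3p (-0.14), miR-15a-5p (-0.067), miR-25-3p (-0.080), let-7d-5p (0.019), miR-29b-1-5p (-0.044) and miR-30b-5p (-0.14) reversed, and the same 4 medians were -0.056, -0.23, -0.024 and -0.17. With the authors' values, 1 miRNA had an unadjusted p under 0.05, 1 did not overlap, 0 intervals stayed within 2-fold and 0 within 1.5-fold, and medians were 0.39 (p53-responsive), 0.19 (the miR-15 and miR-16 group), 0.072 (miR-30), 0.22 (mesenchymal) and -0.15 (inflammation). With the total gene signal, 64 and 35 intervals stayed within 2-fold and 1.5-fold, let-7d-5p (0.040), miR-27b-3p (0.0057) and miR-199a-5p (0.094) reversed, and medians were 0.23 (p53-responsive), 0.13 (let-7), 0.31 (the miR-15 and miR-16 group), 0.39 (miR-29) and 0.24 (mesenchymal). Quantile normalization gave 1 call and reversed miR-199a-5p (0.12).

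The fit adjusted for brightness gave 6 calls, 4 of them higher, and 34 at an unadjusted p under 0.05. It reversed miR-29a-3p (-0.14) and miR-199a-5p (0.020), with medians of 0.11 (let-7) and 0.23 (miR-23/27/24). The fit adjusted for the tRNA, rRNA and GC-rich mean gave 1 call and 23 at an unadjusted p under 0.05. It reversed miR-15a-5p (-0.059), miR-16-5p (0.22), let-7f-5p (-0.048), miR-29b-1-5p (-0.19), miR-23a-3p (-0.15), miR-21a-5p (-0.20), miR-99b-5p (0.17), miR-142a-3p (-0.078), miR-212-3p (0.093) and miR-125b-5p (-0.016), with medians of -0.068 (let-7), 0.41 (miR-29) and -0.13 (miR-23/27/24). Only 2 Gy replicate 1 shared a slide row with the control arrays. Slide row as a block therefore set that 1 array against the control mean and is no adjustment for position. These values were reversed for miR-25-3p (-0.19), let-7d-5p (0.033), miR-29a-3p (-0.070) and miR-30b-5p (-0.036). Same-numbered arrays deviated in opposite directions (correlations of -0.77, -0.82 and -0.54). Both second replicates lay toward the other group, so these correlations cannot tell whether the numbers pair the samples. The replicate block gave 0 calls with 8 at an unadjusted p under 0.05.

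A floor 4 times lower left 52 intervals within 1.5-fold, with medians of 0.13 (p53-responsive) and 0.049 (miR-30). The floor as first written gave 5 at an unadjusted p under 0.05, 4 without overlap and medians of 0.00 (p53-responsive) and 0.019 (mesenchymal). Without a detection filter, 555 and 519 of 566 intervals stayed within 2-fold and 1.5-fold, and the p53-responsive median was 0. With only the 6 arrays in the fit, 3 had an unadjusted p under 0.05, 60 and 31 intervals stayed within 2-fold and 1.5-fold, and medians were 0.22 (p53-responsive) and 0.24 (miR-30). With only miRNAs detected on all control or all 2 Gy arrays these were 7, 63, 44, 0.13 and 0.12.

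Without both second replicates there were 20 calls, 9 higher, with 41 at an unadjusted p under 0.05 and 61 without overlap. Let-7d-5p (0.11), miR-29a-3p (-0.32), miR-27b-3p (0.0030), miR-199a-5p (0.12) and miR-34c-5p in 10 Gy minus 2 Gy (-0.075) reversed, and medians were 0.27 (let-7), -0.11 (miR-29), 0.35 (miR-23/27/24) and -1.51 (tRNA, rRNA and GC-rich). With any single control or 2 Gy array omitted there were 0 to 6 calls, 0 to 2 of them higher, 8 to 23 at an unadjusted p under 0.05 and 12 to 35 without overlap. Medians ran from 0.029 to 0.14 (p53-responsive), -0.037 to 0.18 (let-7), 0.017 to 0.18 (the miR-15 and miR-16 group), -0.055 to 0.010 (miR-30), 0.023 to 0.27 (miR-23/27/24) and -1.54 to -0.29 (tRNA, rRNA and GC-rich). Changes that reversed ran from -0.055 to 0.054 (miR-15a-5p), -0.21 to 0.092 (miR-16-5p), -0.027 to 0.17 (miR-25-3p), -0.12 to 0.056 (let-7d-5p), -0.036 to 0.44 (miR-29b-1-5p), -0.17 to 0.22 (miR-29a-3p), -0.076 to 0.085 (miR-199a-5p), -0.078 to 0.31 (miR-142a-3p), -0.0034 to 0.32 (miR-125b-5p) and -0.044 to 0.56 (miR-34c-5p in 10 Gy minus 2 Gy).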
